A study of Mus musculus with 29 samples.

Results

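The prefrontal cortex (PFC) was compared with the caudate-putamen (CPu, the dorsal striatum of the mouse) after exposure to MPTP, a compound whose metabolite damages dopamine neurons. The comparison used every MPTP array of the series, 11 of its 29 arrays: 6 of the PFC (TgS, TgR and FVB/N mice, 2 arrays each) and 5 of the CPu (TgS 2 arrays, TgR 1 array, FVB/N 2 arrays). TgS mice express the human AChE-S form of acetylcholinesterase, TgR mice express the human AChE-R form, and FVB/N is the parent strain without either transgene. MPTP was injected 4 times at 20 mg/kg, 2 h apart, for 80 mg/kg in all, and both regions were dissected 4 days later. The labels give 6 mice for each strain and treatment and 36 in all. They do not give the number of mice per array, the sex of the mice or the promoter of either transgene. The control arrays are labelled naive, while the treatment text describes saline injections, so it is not settled whether those mice had been injected. Because the labels do not say that replicate arrays came from separate mice, all p-values measure only the spread between these arrays.

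The CPu is made up mostly of GABAergic projection neurons. They receive dense dopamine input from the midbrain and form a direct pathway (substance P and dynorphin) and an indirect pathway (enkephalin and the D2 receptor). Cholinergic interneurons, although few, supply the striatum with acetylcholine and with the esterase that breaks it down. The PFC is built of layered glutamatergic pyramidal neurons with local GABAergic interneurons and receives a much sparser dopamine input. MPTP is converted by glia to a toxin that enters neurons through the dopamine transporter and blocks mitochondrial complex I, and loss of dopamine terminals in the dorsal striatum is its best known effect.

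Values are the log2 signals of 22626 transcripts (probe sets) after 64 control probe sets were left out. A difference is PFC minus CPu on the log2 scale, averaged over strains by a limma fit with strain as a covariate, and a transcript was called at an adjusted p (Benjamini-Hochberg, over all transcripts) under 0.05. Genes were represented by their brightest probe set (12393 genes), and 379 of 457 genes on 33 lists of pathways and cell types were measured. The naive difference quoted beside a result came from naive arrays (PFC replicates 3 and 4, and all CPu arrays), which share no array with the MPTP comparison, although the fit pools their spread with that of the MPTP arrays.

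The MPTP arrays of the 2 regions also differed in their hybridisation controls, which report on array processing. All 18 spiked hybridisation-control probe sets had a higher mean in PFC than in CPu MPTP arrays, by 0.30 to 1.40, and in 11 of 18 the arrays did not overlap. The bioB control averaged 7.64 to 8.04 in PFC MPTP arrays, against 6.77 to 7.50 in CPu MPTP arrays. In the naive arrays used here it averaged 6.94 to 7.47 in the PFC and 6.94 to 7.24 in the CPu. Region and array processing can therefore not be told apart within the MPTP arrays, and the naive values stand beside the results for that reason. Those naive arrays were not free of control differences between the regions. Their bioC, bioD and cre controls overlapped. The spiked control thr did not, at 6.19 to 6.39 in the PFC and 6.43 to 6.75 in the CPu. Their median signal was 7.65 to 7.7 in the PFC and 7.72 to 7.77 in the CPu. Naive PFC replicates 1 and 2 read 3.42 to 3.83 for the Y-linked gene Eif2s3y, against 8.71 to 9.03 in PFC MPTP arrays and 8.76 to 8.94 in CPu MPTP arrays, and were left out of the naive comparison. The actin 5′ minus 3′ difference, a measure of RNA integrity and labelling, was -1.18 and -1.22 in FVB/N CPu arrays, -0.93 to -0.84 in the other CPu arrays and -0.83 to -0.62 in PFC arrays.

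Region was the main axis of variation after MPTP. The first principal component held 69.1% of the variance and placed PFC arrays at -29.5 to -22.3 and CPu arrays at 27.1 to 36.2, with no overlap. Of 22626 transcripts, 11631 were called (51.4%), 5458 of them higher (24.1%) and 6173 lower (27.3%) in the PFC. A difference of at least 2-fold was found for 656 called transcripts (2.9%), of which 400 were higher (1.77%) and 256 lower (1.13%) in the PFC. Counted by gene, 6444 of 12393 were called (52%), with 2781 higher (22.4%) and 3663 lower (29.6%), and the median difference over all genes was -0.04. PFC and CPu arrays did not overlap for 1773 genes higher in the PFC (14.3%) and for 2074 lower in the PFC (16.7%). Counts for gene lists are read against these shares, and with so many transcripts past the test, the size of a difference is given beside each call. With all 29 arrays in 1 fit the number of called transcripts was 7200.

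**Figure D1:**
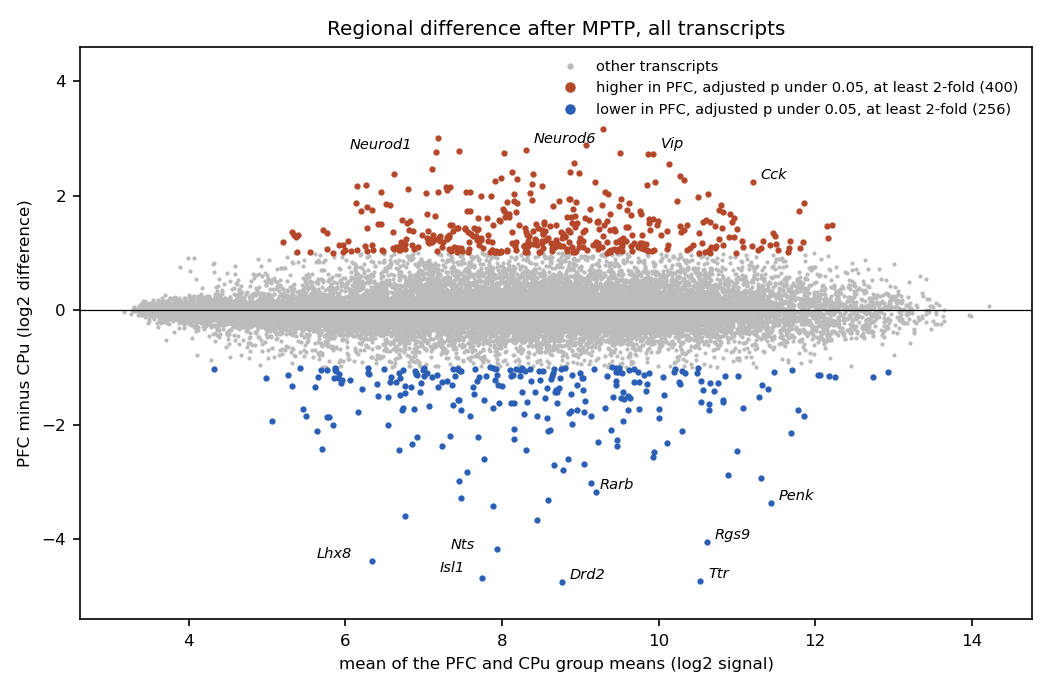
Mean of the PFC and CPu group means of each transcript in the MPTP arrays (x axis, log2 signal) against its PFC minus CPu difference in log2 units (y axis). The 400 transcripts at least 2-fold higher and the 256 at least 2-fold lower in the PFC are coloured, and the largest differences on the lower side are greater in size than those on the higher side.

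Genes of striatal projection neurons were among those furthest below their CPu level in the PFC. Drd2, the D2 dopamine receptor of indirect-pathway neurons, read 6.25, 6.39 and 6.57 (lowest, median and highest) in PFC arrays, against 11.16 and 11.21 in TgS CPu, 11.33 in TgR CPu and 11.18 and 10.79 in FVB/N CPu. Every CPu array lay more than 4 log2 units above every PFC array, and the difference was -4.75 ± 0.09 (SE), or 26.9-fold lower in the PFC (limma adjusted p = 1.38e-11). Penk, the enkephalin precursor of the same neurons, read 9.33, 9.88 and 10.00 in PFC arrays, against 13.15 and 13.11 in TgS CPu, 13.18 in TgR CPu and 13.18 and 13.02 in FVB/N CPu. The 5 CPu arrays lay within a narrow band, all above the PFC, and Penk was 10.4-fold lower in the PFC (-3.37 ± 0.12, limma adjusted p = 1.69e-09). In naive arrays the differences were -4.65 for Drd2 and -3.47 for Penk.

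Genes of the direct pathway were lower in the PFC as well. Isl1, a LIM-homeodomain factor that direct-pathway neurons need to form, read 5.25, 5.38 and 5.66 in PFC arrays, against 10.13 and 9.93 in TgS CPu, 10.18 in TgR CPu and 9.94 and 10.27 in FVB/N CPu. No array overlapped, and the gene was 25.7-fold lower in the PFC (-4.68 ± 0.08, limma adjusted p = 1.38e-11, naive -4.91). The other Isl1 probe set was also called lower, at -2.45. Tac1, the substance P precursor, read 9.50, 9.87 and 10.07 in PFC arrays, against 12.70 and 12.88 in TgS CPu, 12.77 in TgR CPu and 12.82 and 12.81 in FVB/N CPu. It was 7.62-fold lower in the PFC (-2.93 ± 0.07, limma adjusted p = 3.22e-10), with a naive difference of -2.45. Pdyn, the dynorphin precursor, read 6.69, 6.89 and 7.06 in PFC arrays, against 8.48 and 7.82 in TgS CPu, 8.50 in TgR CPu and 8.48 and 8.60 in FVB/N CPu. TgS replicate 2 stood below the other CPu arrays, yet above all PFC arrays, and the gene was 2.77-fold lower in the PFC (-1.47 ± 0.11, limma adjusted p = 6.38e-07; naive -1.40).

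**Figure D2:**
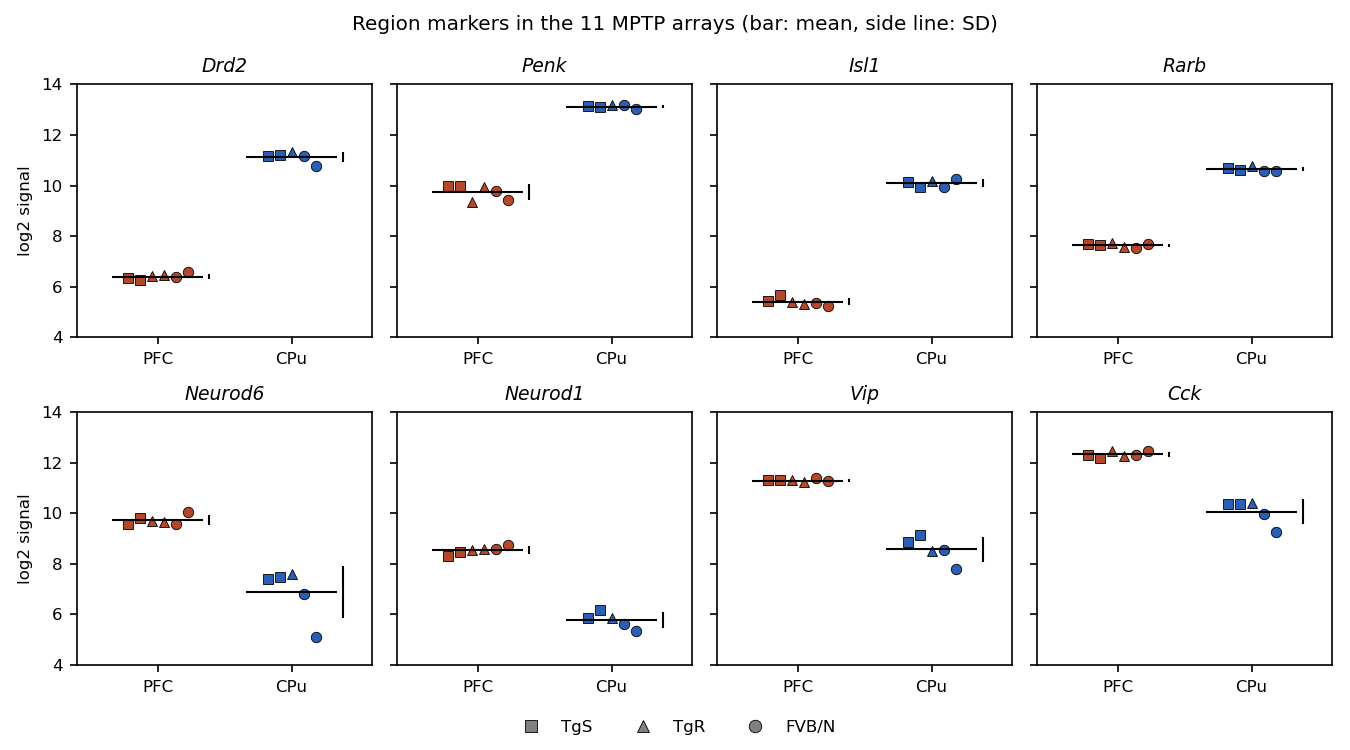
Log2 signal (y axis) of 4 striatal genes (top row: Drd2, Penk, Isl1, Rarb) and 4 cortical genes (bottom row: Neurod6, Neurod1, Vip, Cck) in each MPTP array, PFC left and CPu right, with the strain given by the symbol. Horizontal bars are means and the vertical lines beside them 1 SD, and in every panel all PFC arrays lie on one side of all CPu arrays.

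On the list of striatal projection neurons shared by both pathways, 17 of 18 measured genes were lower in the PFC and 1 was higher, with a median difference of -1.67 against -0.04 for all genes. The exception was Cnr1, the cannabinoid receptor, at 0.54. The mean level of this list was 9.20 to 9.23 in PFC arrays, against 10.81 to 11.17 in CPu arrays, and in naive arrays, where 22.2% of all genes were higher and 32.4% lower, 17 members were lower with a median of -1.59. The striatal label of the CPu arrays thus had its markers in every array. In bulk tissue of this kind, fewer cells of a type and less RNA per cell cannot be told apart. Of the 7 direct-pathway genes 5 were lower and none higher (median -0.64), and both measured indirect-pathway genes were lower. Drd1, the D1 receptor, and Adora2a, the adenosine receptor of indirect-pathway neurons, were not analysed here. Of the 3 dopamine receptors measured, 2 were lower: beside Drd2, Drd3 was 1.21-fold lower (limma adjusted p = 0.0176), while Drd4 differed by -0.08 (limma adjusted p = 0.318).

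Signalling proteins of striatal neurons showed differences of the same order. Rgs9, whose striatal form speeds the shut-off of D2 receptor signalling, read 8.36, 8.63 and 8.70 in PFC arrays, against 12.69 and 12.31 in TgS CPu, 12.91 in TgR CPu and 12.68 and 12.64 in FVB/N CPu. It was 16.7-fold lower in the PFC (-4.06 ± 0.09, naive -4.16). The other Rgs9 probe set was also called lower, but at -0.70. Ppp1r1b, the phosphatase inhibitor through which dopamine controls protein phosphorylation, read 9.30, 9.44 and 9.63 in PFC arrays, against 12.22 and 12.28 in TgS CPu, 12.54 in TgR CPu and 12.32 and 12.30 in FVB/N CPu. The groups did not overlap, and it was 7.39-fold lower in the PFC (-2.89 ± 0.07, limma adjusted p = 3.02e-10; naive -3.14). Rasgrp2, an exchange factor for the small GTPase Rap, was 9.07-fold lower (naive -3.66), and Pde10a, the striatal phosphodiesterase of cyclic nucleotides, 3.08-fold lower. All 3 probe sets of Rasgrp2 were called lower, at -3.18 to -1.60. Over the whole list of 20 cyclic nucleotide and G-protein signalling genes, 9 were lower and 6 higher, with a median of -0.05, close to that of all genes.

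The retinoid receptor genes Rarb and Rxrg also separated the regions. Rarb, the retinoic acid receptor beta, read 7.53, 7.66 and 7.71 in PFC arrays, against 10.70 and 10.60 in TgS CPu, 10.76 in TgR CPu and 10.59 and 10.59 in FVB/N CPu. It was 8.12-fold lower in the PFC (-3.02 ± 0.05, limma adjusted p = 1.19e-11; naive -3.08), with the 5 CPu arrays within 0.2 of each other. Rxrg, the retinoid X receptor that pairs with such receptors, read 7.25, 7.39 and 7.58 in PFC arrays, against 10.37 and 10.06 in TgS CPu, 10.57 in TgR CPu and 9.94 and 9.88 in FVB/N CPu, and was 6.91-fold lower (limma adjusted p = 1.06e-09; naive -2.63). Crabp1, which binds retinoic acid in the cytoplasm, was 2.32-fold lower (limma adjusted p = 2.41e-06). The list of 15 retinoid genes as a whole was close to all genes, with 5 lower and 3 higher (median -0.05). Of all genes 29.6% were lower and 22.4% higher (median -0.04). Among the list members higher in the PFC was Aldh1a2, an enzyme that makes retinoic acid in the meninges.

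The promoter of Rarb is shown because the gene is a classic target of its own ligand. The window used holds the 300 bases from 250 before to 50 after a RefSeq (GRCm38.p6) start of the gene, at chr14:16575427-16575726 on the minus strand. RefSeq spans the whole gene over chr14:16430839-17082331, so this start lies inside the gene and is not its outermost start. Capitals mark a match to the retinoic acid response element, the half-sites GTTCA and AGTTCA with any 5 bases between them, searched on both strands. The match begins 52 bases before the start used here.
Rarb: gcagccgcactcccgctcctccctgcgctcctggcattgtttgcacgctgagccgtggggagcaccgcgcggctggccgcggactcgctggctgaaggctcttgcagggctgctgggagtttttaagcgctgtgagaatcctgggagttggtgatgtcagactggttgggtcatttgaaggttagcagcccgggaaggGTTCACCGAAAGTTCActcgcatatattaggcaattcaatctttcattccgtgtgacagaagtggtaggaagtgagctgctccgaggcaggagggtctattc
This motif was found in 11 of 32851 RefSeq promoters of the same length (0.0335%), and among the promoters available for the 30 genes with the largest differences only in that of Rarb. Only this spelling of the half-sites, the one present in Rarb, was searched, so its rarity says nothing about other spellings of the element. A match of letters is a description and shows neither binding nor a cause of the difference.

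Several genes of the ventral and cholinergic forebrain were among the 15 largest differences on the lower side. Lhx8, a LIM-homeodomain factor of forebrain cholinergic neurons, read 4.01, 4.15 and 4.26 in PFC arrays, against 8.61 and 8.15 in TgS CPu, 8.09 in TgR CPu and 8.83 and 9.01 in FVB/N CPu. It was 20.8-fold lower in the PFC (-4.38 ± 0.14, limma adjusted p = 1e-09; naive -4.64). Nts, the neurotensin precursor, read 5.63, 5.76 and 6.16 in PFC arrays, against 10.14 and 9.83 in TgS CPu, 9.33 in TgR CPu and 10.33 and 10.65 in FVB/N CPu, and was 18.1-fold lower (naive -4.34). Ecel1, a neuronal endopeptidase-like protein, was 9.68-fold lower (naive -3.50), and Mme, the neprilysin that degrades enkephalins, 7.9-fold lower (naive -3.04). The other Mme probe set was also called lower, but at -0.99. Ido1, which starts the breakdown of tryptophan, read 4.78, 4.96 and 5.24 in PFC arrays, against 8.56 and 8.81 in TgS CPu, 9.20 in TgR CPu and 8.11 and 8.07 in FVB/N CPu, and was 12.1-fold lower (naive -3.69). Dmkn, a secreted protein best known from skin, was 10.7-fold lower (naive -2.92), with TgR CPu at 10.32 above the other CPu arrays at 9.22 to 9.53.

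Cholinergic genes were lower in the PFC, whose cholinergic supply comes mainly from axons of the basal forebrain. Of 9 measured genes of cholinergic neurons and cholinesterases, 8 were lower and none higher, with a median of -0.98 (naive 7 lower, median -0.98). Slc18a3, the vesicular acetylcholine transporter, read 5.85, 5.95 and 6.00 in PFC arrays, against 7.71 and 7.34 in TgS CPu, 6.85 in TgR CPu and 7.73 and 7.60 in FVB/N CPu, and was 2.78-fold lower (naive -1.98). Slc5a7, the choline transporter of cholinergic terminals, was 2.07-fold lower, and Prima1, which anchors acetylcholinesterase in neuronal membranes, 1.97-fold lower. The exception to the calls was Bche, butyrylcholinesterase, at 5.22, 5.37 and 5.48 in PFC arrays, against 5.33 to 5.49 in CPu arrays (difference -0.05, limma adjusted p = 0.459).

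Acetylcholinesterase itself, the enzyme the transgenes encode, was lower in the PFC. Ache read 9.03, 9.19 and 9.40 in PFC arrays, against 9.81 and 9.46 in TgS CPu, 9.46 in TgR CPu and 9.96 and 10.23 in FVB/N CPu. The groups did not overlap, and Ache was 1.48-fold lower in the PFC (-0.57 ± 0.13, limma adjusted p = 0.00272), against a naive difference of -1.12. The MPTP minus naive difference was 0.59 (limma adjusted p = 0.000466). It was 0.08 (limma adjusted p = 0.6) when all 29 arrays were fitted with a term for the set of naive PFC arrays. In that fit the naive PFC level is that of replicates 1 and 2, the arrays left out of the naive comparison. The fit thus exchanges the naive PFC reference and does not pool all naive PFC arrays, here and wherever the set term is used below. Whether the probe set also reads the human transgenes is not known from the files, so the gene does not check the transgenic labels.

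Most receptors for acetylcholine were not called. Of 12 measured receptor genes 5 were higher in the PFC and none lower, with a median of 0.08 (naive 4 higher and 1 lower). Chrm3, a muscarinic receptor, read 6.92, 7.20 and 7.44 in PFC arrays, against 6.31 and 6.02 in TgS CPu, 5.97 in TgR CPu and 6.10 and 6.08 in FVB/N CPu, and was 2.15-fold higher in the PFC. Chrm1, the muscarinic receptor of pyramidal neurons, was 1.73-fold higher, and the nicotinic subunits Chrna4 and Chrnb2 were 1.55-fold and 1.31-fold higher.

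On the higher side, the largest differences were genes of cortical glutamatergic neurons, neuropeptides and matrix proteins. Neurod6, a basic helix-loop-helix factor of pyramidal neurons, read 9.57, 9.67 and 10.07 in PFC arrays, against 7.39 and 7.49 in TgS CPu, 7.60 in TgR CPu and 6.82 and 5.12 in FVB/N CPu. It was 7-fold higher in the PFC (2.81 ± 0.33, limma adjusted p = 2.72e-05), and the CPu arrays spread over more than 2 log2 units with both FVB/N arrays lowest. Neurod1, a related factor, read 8.31, 8.57 and 8.75 in PFC arrays, against 5.85 and 6.18 in TgS CPu, 5.86 in TgR CPu and 5.61 and 5.35 in FVB/N CPu, and was 6.79-fold higher (2.76 ± 0.13, limma adjusted p = 1.79e-08). In naive arrays the differences were 3.69 for Neurod6 and 2.85 for Neurod1.

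Peptides and secreted proteins followed. Vip, the vasoactive intestinal peptide of a class of interneurons, read 11.22, 11.30 and 11.38 in PFC arrays, against 8.85 and 9.15 in TgS CPu, 8.52 in TgR CPu and 8.54 and 7.79 in FVB/N CPu, and was 6.64-fold higher (2.73 ± 0.15, limma adjusted p = 9.17e-08; naive 3.17). Smoc2, a secreted matrix protein, read 8.76, 8.84 and 9.03 in PFC arrays, against 5.94 and 6.27 in TgS CPu, 6.22 in TgR CPu and 6.08 and 5.74 in FVB/N CPu, and was 6.88-fold higher (limma adjusted p = 4.96e-10; naive 2.39). Cck, the cholecystokinin precursor of pyramidal and basket cells, read 12.20, 12.30 and 12.47 in PFC arrays, against 10.35 and 10.37 in TgS CPu, 10.39 in TgR CPu and 9.97 and 9.26 in FVB/N CPu. No array of one region overlapped the other for these 3 genes, and Cck was 4.73-fold higher in the PFC (2.24 ± 0.16, limma adjusted p = 4.6e-07; naive 2.72). C1ql3, a secreted protein at synapses, was 5.86-fold higher, Frzb, a secreted Wnt antagonist, 5.19-fold, Ccn3, a matricellular protein, 5.11-fold, and Rtn4r, the Nogo receptor that limits axon growth, 4.75-fold. Epop, Cd34, Npnt, Car10, Pdzrn3 and Myl4 completed the 15 genes, and for Myl4 one probe set was higher (2.26) while its other was lower (-0.11). All 5 probe sets of Npnt were called higher, at 0.27 to 2.21.

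The promoters of Tac1 and Cck, neuropeptide genes that lay on opposite sides of the comparison, are shown because both hold the letters TGCGTCA, a variant of the cyclic AMP response element, in RefSeq GRCm38.p6. Capitals mark that match. In Tac1 (chr6:7554811-7555110, plus strand) it starts 199 bases before the gene start, and in Cck (chr9:121495645-121495944, minus strand) 49 bases before.
Tac1: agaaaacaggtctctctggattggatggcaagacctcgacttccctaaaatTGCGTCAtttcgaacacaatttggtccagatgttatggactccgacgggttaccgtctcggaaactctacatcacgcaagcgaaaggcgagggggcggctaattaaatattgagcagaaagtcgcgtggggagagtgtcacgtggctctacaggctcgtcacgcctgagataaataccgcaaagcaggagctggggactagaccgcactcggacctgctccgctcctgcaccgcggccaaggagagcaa
Cck: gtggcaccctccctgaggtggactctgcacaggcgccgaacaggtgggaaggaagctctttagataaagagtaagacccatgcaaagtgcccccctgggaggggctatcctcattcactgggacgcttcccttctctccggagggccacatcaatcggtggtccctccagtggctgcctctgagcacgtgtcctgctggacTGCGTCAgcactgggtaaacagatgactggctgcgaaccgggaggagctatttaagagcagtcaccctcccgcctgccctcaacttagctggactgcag
The motif, searched on both strands, was in 2.12% of all RefSeq promoters of that length. It was in the promoter of 1 of 12 genes with the largest differences on the higher side (Cck) and 2 of 11 on the lower side (Isl1 and Tac1), so it did not divide the sides. The full palindrome TGACGTCA (1.79% of promoters) was in none of these windows, and CAGATG, an E-box bound by Neurod factors (17.2%), was in those of Cck, Ecel1, Rgs9 and Tac1.

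All 10 measured genes of cortical glutamatergic neurons were higher in the PFC, with a median of 1.20 (naive 10 higher, median 1.19). Their mean level was 10.69 to 10.93 in PFC arrays, against 8.78 to 9.52 in CPu arrays, so the cortical label held in every PFC array. Genes of single layers were mixed. Of 10 upper-layer genes 5 were higher and 1 lower (median 0.18), and of 16 deep-layer genes 7 were higher and 4 lower (median 0.22). Cux2, an upper-layer homeodomain factor, read 7.68, 7.87 and 8.15 in PFC arrays, against 6.14 and 6.16 in TgS CPu, 6.12 in TgR CPu and 6.28 and 6.23 in FVB/N CPu, and was 3.21-fold higher (limma adjusted p = 3.85e-09; naive 1.13). Fezf2, which specifies deep-layer neurons that project below the cortex, read 8.42, 8.95 and 9.24 in PFC arrays, against 7.47 and 7.52 in TgS CPu, 7.34 in TgR CPu and 6.93 and 6.65 in FVB/N CPu, and was 3.31-fold higher. The deep-layer genes that were lower included Tle4, a corepressor, and Foxp2, a forkhead factor, at 2.08-fold and 2.17-fold lower, and striatal projection neurons are known to express Foxp2 too.

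Transcription factors that pattern the embryonic forebrain divided by their domain of origin. Of 13 factors of the pallium, from which cortex forms, 10 were higher in the PFC and none lower (median 1.05). Of 16 factors of the subpallium, from which striatum and interneurons form, 12 were lower and none higher (median -0.87). Nr2f1, which shapes cortical areas, was 3.11-fold higher in the PFC, and Lhx2, a selector of cortical identity, 2.02-fold higher. Six3, a striatal factor, was 2.42-fold lower, with 2 of its 3 probe sets called. Both lists kept their sides in naive arrays, with medians of 0.90 and -1.06.

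Genes of inhibitory transmission did not move as one. Of 4 genes of GABA synthesis and transport 3 were lower in the PFC: Slc32a1, the vesicular GABA transporter, was 2.42-fold lower and Abat, which breaks GABA down, 1.84-fold lower. Each of these has a second probe set that was not called, at -0.09 for Slc32a1 and 0.00 for Abat. Of 17 interneuron genes 9 were higher and 4 lower, among them Pvalb, the calcium buffer of fast-spiking cells, at 1.87-fold higher. Sst, somatostatin, differed by -0.39. Of 22 neuropeptide precursors 7 were higher and 12 lower. Grp, gastrin-releasing peptide, was 3.98-fold higher and Adcyap1, the precursor of PACAP, 3.65-fold higher in the PFC. Among receptors, the GABA-A subunit Gabra3 was 3.07-fold higher and the AMPA subunit Gria3 2.49-fold higher, while 3 of 9 GABA-A and 4 of 13 ionotropic glutamate receptor genes were higher and 2 of each lower.

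Genes of dopamine synthesis and handling showed no shared direction. Of 12 measured members 1 was higher and 4 lower in the PFC, with a median of -0.00, and without both FVB/N CPu arrays 3 were higher and 4 lower. Ddc, which makes dopamine from L-DOPA and also serves serotonin synthesis, read 6.35, 6.69 and 7.03 in PFC arrays, against 8.10 and 8.26 in TgS CPu, 8.10 in TgR CPu and 8.30 and 8.40 in FVB/N CPu. It was 2.96-fold lower in the PFC (-1.57 ± 0.10, limma adjusted p = 2.75e-07; naive -1.86). Qdpr, which recycles the cofactor of tyrosine hydroxylase, was 1.68-fold lower, Maoa, a monoamine oxidase, 1.21-fold lower, and Sncb, beta-synuclein, 2-fold higher. Slc6a3, the dopamine transporter made in the midbrain, differed by 0.03 (limma adjusted p = 0.812). Slc18a2, the vesicular monoamine transporter, was not analysed here.

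Th, tyrosine hydroxylase, the rate-limiting enzyme of dopamine synthesis, varied widely among PFC arrays. It read 8.95 and 9.19 in TgS PFC, 7.87 and 9.36 in TgR PFC and 8.64 and 6.94 in FVB/N PFC, against 7.59 and 7.28 in TgS CPu, 7.67 in TgR CPu and 7.92 and 7.99 in FVB/N CPu. FVB/N PFC replicate 2 lay below every CPu array and TgR PFC replicate 1 among them. The difference was 0.79 ± 0.37 (limma adjusted p = 0.0993), and without FVB/N PFC replicate 2 it was 1.17 (adjusted p = 0.0034). In naive arrays it was 0.20.

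Markers of the olfactory bulb, which adjoins the PFC and holds dopamine neurons of its own, moved with Th across PFC arrays. Cdhr1, a cadherin of mitral and tufted cells, read 9.76 and 10.25 in TgS PFC, 8.24 and 10.19 in TgR PFC and 9.51 and 6.98 in FVB/N PFC, against 6.40 and 6.57 in TgS CPu, 7.12 in TgR CPu and 7.00 and 7.03 in FVB/N CPu. The same PFC arrays were lowest for Th and for Cdhr1, and Cdhr1 was 4.94-fold higher in the PFC (2.31 ± 0.51, limma adjusted p = 0.00254; naive 1.73). Doc2g and Tbx21, also of mitral and tufted cells, were 3.32-fold and 2.56-fold higher. Of 9 olfactory bulb genes 5 were higher and 1 lower (median 1.02), and their mean level was 7.60 to 9.28 in PFC arrays, against 7.62 to 7.94 in CPu arrays. This list includes Th itself, so its mean level is not separate from Th. It also includes Lhx2, which is on the cortical list too and whose difference is the list median. The part of bulb tissue in the Th difference was not tested.

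**Figure D3:**
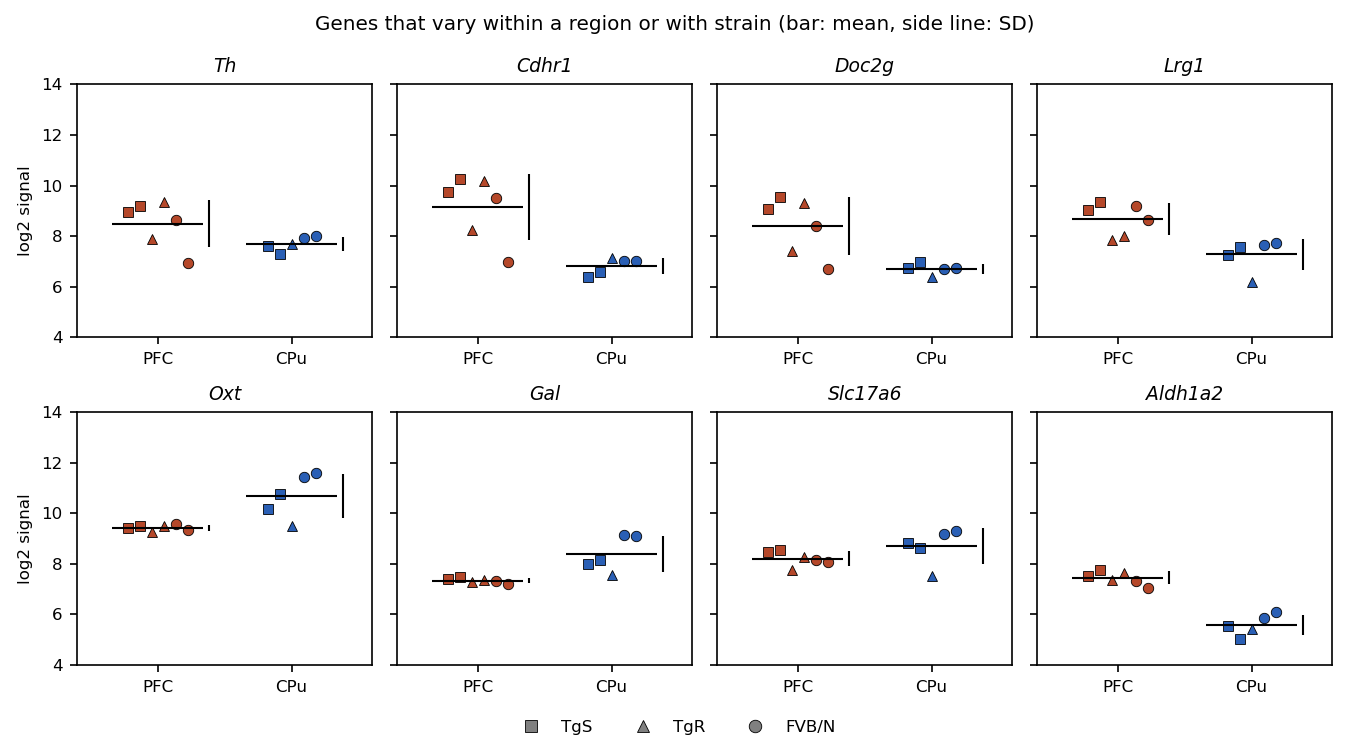
Log2 signal (y axis) in each MPTP array, PFC left and CPu right, with the strain given by the symbol, for 4 genes that varied among PFC arrays (top row: Th, Cdhr1, Doc2g, Lrg1) and 4 that varied among CPu arrays or changed with treatment (bottom row: Oxt, Gal, Slc17a6, Aldh1a2). Bars are means and side lines 1 SD, and FVB/N PFC replicate 2 is the lowest of the PFC arrays for Th, Cdhr1 and Doc2g.

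Myelin genes were lower in the PFC, a region poorer in fibre tracts than the CPu. All 13 measured genes of oligodendrocytes and myelin were lower, with a median of -1.29 (naive 13 lower, median -1.44). Mog, a protein of the outer myelin surface, read 7.45, 7.55 and 7.63 in PFC arrays, against 9.28 and 9.50 in TgS CPu, 9.76 in TgR CPu and 9.19 and 9.08 in FVB/N CPu, and was 3.6-fold lower (naive -1.47). Ugt8a and Fa2h, enzymes of myelin galactolipids, were 3.34-fold and 2.44-fold lower, and Mag, a myelin adhesion protein, 2.4-fold lower. Of 16 astrocyte genes 9 were lower and none higher (median -0.20), with Agt, angiotensinogen, 2.52-fold lower.

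Microglial genes were more often lower in the PFC after MPTP than in naive arrays. Of 17 genes of microglia and complement 11 were lower and none higher after MPTP (median -0.31), while 2 were lower and 2 higher in naive arrays (median -0.02). Their mean level was 8.73 to 8.89 in PFC arrays, against 8.95 to 9.33 in CPu arrays. Cd68, a lysosomal protein of phagocytes, read 6.85, 7.17 and 7.44 in PFC arrays, against 7.93 and 7.99 in TgS CPu, 8.66 in TgR CPu and 8.14 and 8.03 in FVB/N CPu, and was 2.05-fold lower (limma adjusted p = 3.41e-07; naive -0.75). Laptm5, a lysosomal protein of immune cells, read 8.26, 8.45 and 8.59 in PFC arrays, against 9.03 and 9.07 in TgS CPu, 9.66 in TgR CPu and 9.01 and 8.87 in FVB/N CPu. It was 1.66-fold lower after MPTP (limma adjusted p = 3.12e-05) with a naive difference of -0.02, though only 1 of its 3 probe sets was called.

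The difference between the treatments was tested for this list gene by gene. In that test 11 of 17 microglial genes had a lower PFC minus CPu difference after MPTP than in naive arrays and none a higher one (median -0.34). Over all genes 12.9% were called lower and 17.8% higher, with a median of 0.01. The change was -0.31 for Cd68 (limma adjusted p = 0.00642), -0.76 for Laptm5 (1.42e-05), -0.41 for Csf1r, the receptor microglia need to survive, and -0.52 for Ly86, which modulates Toll-like receptor signalling. The fit of all 29 arrays with a term for the set of naive PFC arrays takes replicates 1 and 2 as the naive PFC level. In that fit 12 were lower and 1 higher (median -0.47). Of all genes 12% were higher and 28.6% lower there, with a median of -0.12. P2ry12, a receptor of resting microglia, turned direction between these fits (-0.53 and 0.56). The TgR CPu array was the highest of all 11 for Cd68, Laptm5 and Csf1r, and the CPu value for TgR rests on that array alone.

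Meningeal and fibroblast genes, of the tissue that covers the cortical surface, were higher in the PFC after MPTP. Of 15 measured, 13 were higher and none lower (median 0.64), against 7 higher and 3 lower in naive arrays (median 0.03). Their mean level was 8.25 to 8.68 in PFC arrays, against 7.52 to 7.95 in CPu arrays. Aldh1a2 read 7.04, 7.43 and 7.77 in PFC arrays, against 5.53 and 5.02 in TgS CPu, 5.42 in TgR CPu and 5.85 and 6.09 in FVB/N CPu, and was 3.64-fold higher (1.86 ± 0.18, limma adjusted p = 5.93e-06; naive 0.24). Slc47a1, an organic cation transporter, was 3.57-fold higher (limma adjusted p = 1.19e-06; naive 0.57), and Slc6a13, a GABA and taurine transporter, 2.29-fold higher. Tested between treatments, 12 of 15 had a higher difference after MPTP (median 0.68), but 3 higher and 2 lower in the fit of all 29 arrays with the set term (median 0.20). Of all genes 17.8% were higher and 12.9% lower in the first fit, and 12% higher and 28.6% lower in the second. For Slc47a1 the change between treatments was 1.31 in the first and 0.20 in the second of these fits (adjusted p = 0.565).

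Endothelial and mural genes depended on the naive arrays in the same way. After MPTP 5 of 19 were higher and 3 lower in the PFC (median 0.06), and in naive arrays 1 was higher and 13 lower (median -0.35). Tested between treatments, 11 of 19 had a higher difference after MPTP and 1 a lower one. Over all genes 17.8% were higher and 12.9% lower. With all 29 arrays and the set term 3 were higher and 4 lower, where 12% of all genes were higher and 28.6% lower. Vwf and Thbd are not on this list and were named for their large change between treatments. Vwf, the clotting factor carrier made by endothelium, was 1.4-fold higher after MPTP, against a naive difference of -1.09. Its change between treatments was 1.61, or -0.04 with all 29 arrays and the set term. Thbd, the endothelial thrombin receptor thrombomodulin, was 2.66-fold higher after MPTP, against a naive difference of 0.04.

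Most immediate early genes, which neurons transcribe within minutes of activity, were higher in the PFC after MPTP. Of 21 measured, 16 were higher and none lower (median 0.56), against 6 higher and 2 lower in naive arrays (median 0.15). Bdnf, a neurotrophin whose transcription follows activity, was 2.03-fold higher (naive 1.15), and Dusp6, a phosphatase of the ERK pathway, 1.93-fold higher (naive 0.89). Jund, a subunit of the AP-1 factor, was 1.32-fold higher after MPTP, against a naive difference of -0.23. With no strain covariate 12 members were higher, and with all 29 arrays in 1 fit 6. Between treatments 6 members had a higher difference after MPTP and none a lower one, where 17.8% of all genes were higher and 12.9% lower. The fit of all 29 arrays with the set term gave 1 higher and 3 lower, where 12% of all genes were higher and 28.6% lower.

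Genes of mitochondrial complex I, the target of the MPTP metabolite, differed by small amounts, mostly in 1 direction. Of 26 subunit genes 17 were lower in the PFC and none higher, with a median of -0.19, against 8 lower in naive arrays with a median of -0.06. Tested between treatments, 9 of 26 had a lower difference after MPTP and none a higher one (median -0.125), where 12.9% of all genes were lower. With all 29 arrays and the set term 13 were lower and none higher (median -0.21), where 28.6% of all genes were lower. Ndufb10 and Ndufa1 were each 1.3-fold lower. The acute-phase list, genes induced by injury and inflammation, had 4 of 18 higher and 1 lower. Lrg1, a secreted glycoprotein of that list, read 7.85, 8.84 and 9.33 in PFC arrays, against 7.27 and 7.56 in TgS CPu, 6.20 in TgR CPu and 7.64 and 7.71 in FVB/N CPu, and was 2.94-fold higher (1.56 ± 0.12, limma adjusted p = 9.27e-07). Naive arrays read 6.61 to 6.82 in the PFC and 5.77 to 6.27 in the CPu, a difference of 0.75.

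Lcn2, lipocalin 2, a protein of acute inflammation that captures bacterial iron carriers, spread widely within both regions. It read 5.67, 9.47 and 10.27 in PFC arrays, against 8.75 and 9.81 in TgS CPu, 6.35 in TgR CPu and 9.28 and 9.23 in FVB/N CPu. In both regions the TgR arrays were lowest (5.67 and 6.57 in the PFC), the regions overlapped, and the difference was 0.35 ± 0.25 (limma adjusted p = 0.268). Naive arrays read 4.64 to 5.08 in the PFC and 4.65 to 5.11 in the CPu.

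Some genes of neighbouring tissues were higher in the CPu arrays. Of 11 choroid plexus and ependymal genes 9 were lower and 1 higher in the PFC (median -1.18), and their mean level was 5.87 to 6.05 in PFC arrays, against 6.64 to 7.95 in CPu arrays. Ttr, transthyretin, the main secreted product of choroid plexus, read 7.66, 8.05 and 8.86 in PFC arrays, against 13.41 and 13.56 in TgS CPu, 12.84 in TgR CPu and 13.80 and 10.72 in FVB/N CPu. It was 26.6-fold lower in the PFC (-4.73 ± 0.45, limma adjusted p = 4.76e-06; naive -5.04), with FVB/N CPu replicate 2 far below the other CPu arrays. Hypothalamic genes were lower for 7 of 11 members (median -0.26), 4 of 11 without both FVB/N CPu arrays. Their mean level was 6.77 to 7.06 in PFC arrays, against 7.02 to 7.81 in CPu arrays. Thalamic genes were lower for 4 of 12 and higher for 1 (median -0.09), where 29.6% of all genes were lower and 22.4% higher (median -0.04). The share of lower thalamic genes was thus close to that of all genes. Their mean level was 6.92 to 7.26 in PFC arrays, against 7.14 to 7.72 in CPu arrays. The part of such neighbouring tissue in the other differences was not tested.

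**Figure D4:**
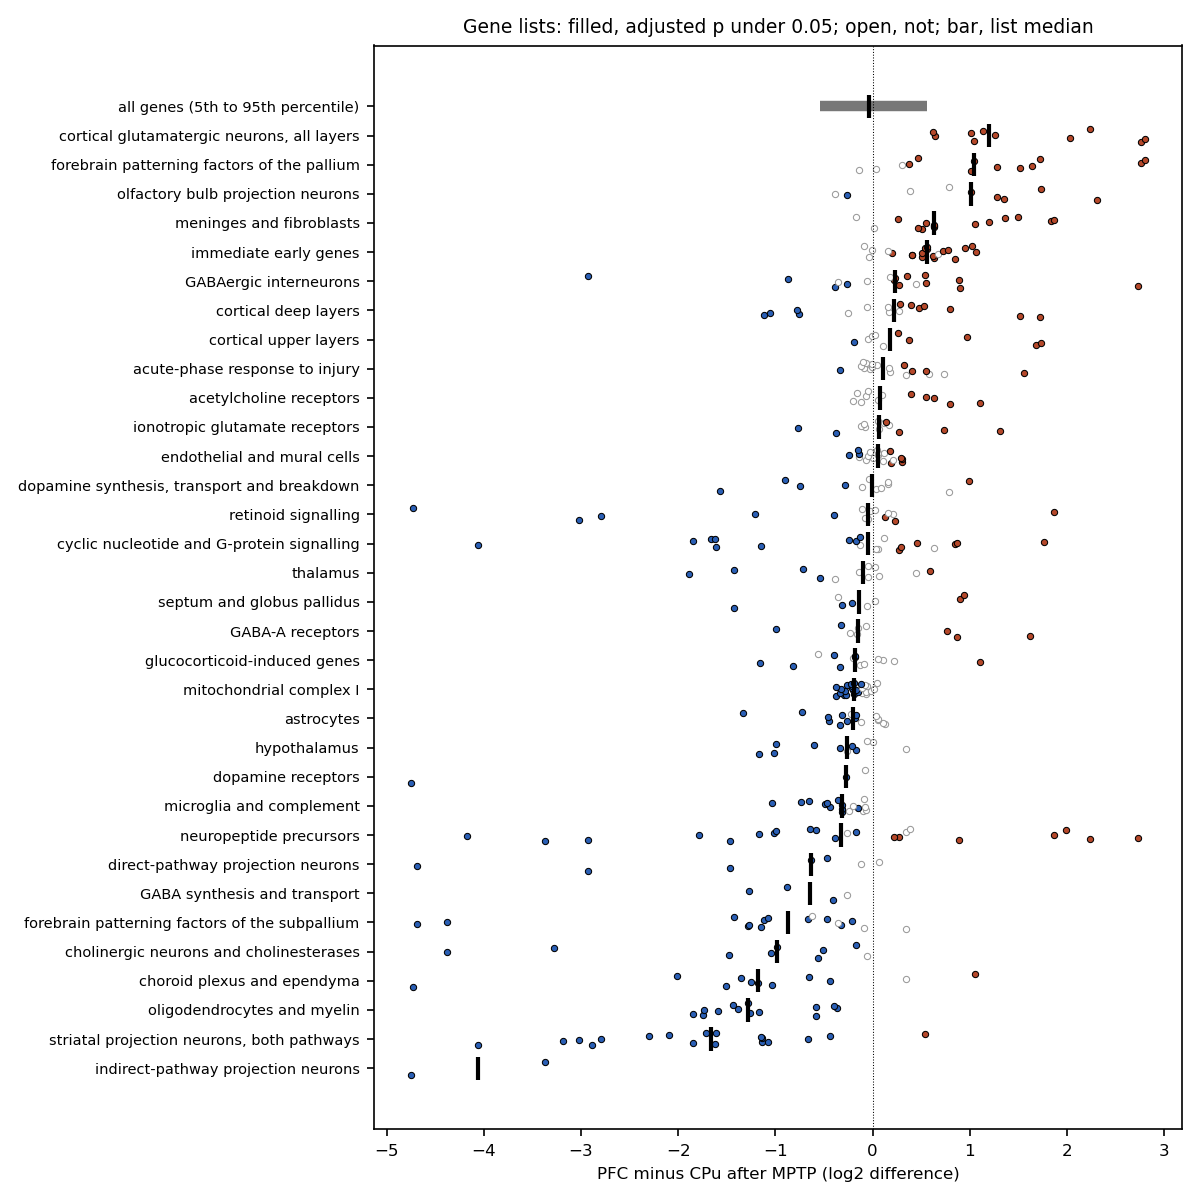
PFC minus CPu difference after MPTP (x axis, log2 units) of every measured gene of the 33 lists (y axis), with a mark at each list's median and, at the top, the median and the 5th to 95th percentile of all 12393 genes. The striatal, myelin and choroid plexus medians lie at -1.67, -1.29 and -1.18 with the 2 indirect-pathway genes lower still, and the cortical and pallial medians lie at 1.20 and 1.05.

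The larger regional differences after MPTP were also present in naive mice. Of the 656 transcripts that differed at least 2-fold after MPTP, 633 (96.5%) were called in the same direction in naive arrays, where 53.2% of all transcripts were called, and none in the opposite direction. Of all calls, 6866 had the same direction in both comparisons, which is 59% of the MPTP calls and 57% of the naive calls, and 762 had opposite directions. Arc, an immediate early gene, and Slc6a13 were among the 23 transcripts at least 2-fold different after MPTP and not called in naive arrays. For Arc the difference was 1.06 after MPTP and 0.58 in naive arrays, where it just missed the threshold (limma adjusted p = 0.0556). For Slc6a13 it was 1.20 after MPTP and 0.03 in naive arrays. Cd24a, a surface glycoprotein of immature neurons and immune cells, also belonged to these 23 transcripts, at -1.33 after MPTP and -0.02 in naive arrays.

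**Figure D5:**
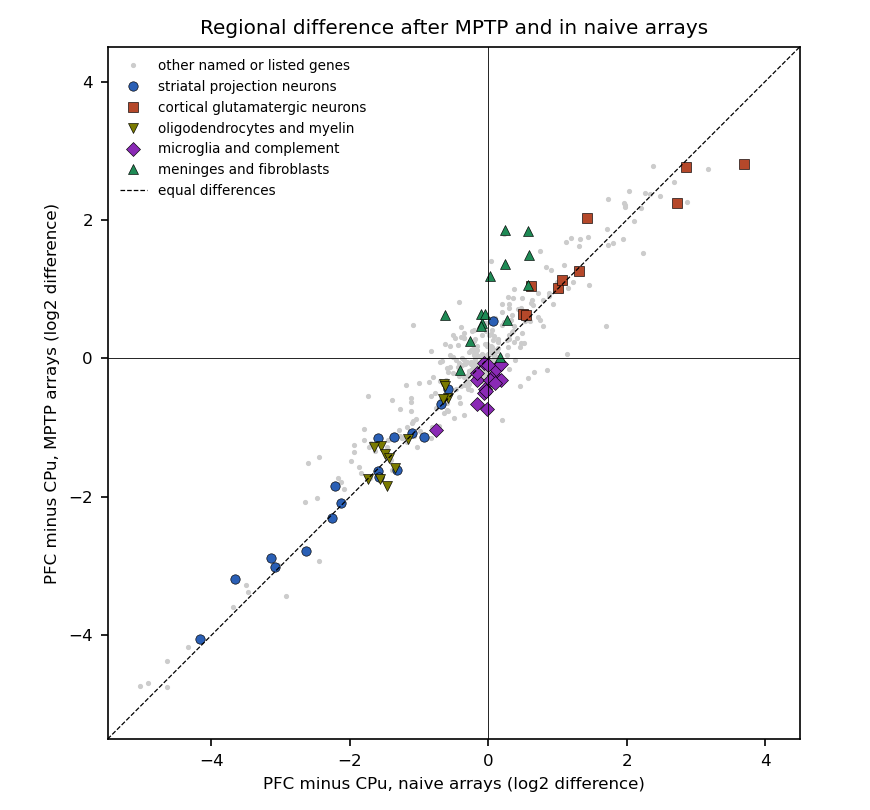
PFC minus CPu difference in naive arrays (x axis, log2 units) against that after MPTP (y axis, log2 units) for each named or listed gene, with the identity line and the members of 5 lists coloured. Striatal and cortical genes lie along the line, microglial genes mostly below it and meningeal genes mostly above it.

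Tested directly, the regional difference changed with MPTP for 7349 transcripts (32.5%), mostly by little: 59 changed at least 2-fold (0.261%). Of these 7349, 4188 had a higher difference after MPTP (18.5%) and 3161 a lower one (14%). With all 29 arrays and the set term the count was 9801 (43.3%), of which 3937 were higher (17.4%) and 5864 lower (25.9%). The naive PFC level is there that of replicates 1 and 2, so the balance of directions depended on which naive PFC arrays were used. For Neurod6 the difference was less positive after MPTP, by -0.97 (limma adjusted p = 0.03), or -0.57 with all 29 arrays and the set term (adjusted p = 0.165). For Tac1 it was more negative, by -0.51 (limma adjusted p = 0.000175), or -1.23 in that second fit (adjusted p = 5.73e-05). Hybridisation controls were higher in PFC MPTP arrays than in the naive PFC arrays used here, as given above, and treatment and array processing cannot be told apart in this test.

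The regional difference depended on strain for few transcripts. A limma F test over the 3 strains called 128 transcripts (0.566%). Before adjustment 3380 transcripts (14.9%) had a p below 0.05. Pairwise, 157 differed between TgR and FVB/N (0.694%), 91 between TgS and FVB/N (0.402%) and 29 between TgS and TgR (0.128%). The count rests on single arrays: it was 17 without FVB/N PFC replicate 2, 43 without TgS CPu replicate 2, 46 without TgS CPu replicate 1, 49 without FVB/N CPu replicate 2, 51 without FVB/N PFC replicate 1, 52 without TgS PFC replicate 1 and 79 without TgS PFC replicate 2.

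By the same F test, the regional difference depended on strain for 2 of 11 hypothalamic genes and 5 of 22 neuropeptide precursors, against 0.573% of all genes. Oxt and Gal are on both of these lists. Similar shares were called on other lists: 3 of 15 meningeal and fibroblast genes, 2 of 12 thalamic genes and 2 of 16 deep-layer genes. Gal, the galanin precursor, read 7.21, 7.34 and 7.46 in PFC arrays, against 7.99 and 8.14 in TgS CPu, 7.55 in TgR CPu and 9.16 and 9.11 in FVB/N CPu (limma F test between strains, adjusted p = 0.00137). Oxt, the oxytocin precursor, read 9.26, 9.46 and 9.59 in PFC arrays, against 10.16 and 10.76 in TgS CPu, 9.48 in TgR CPu and 11.44 and 11.59 in FVB/N CPu (adjusted p = 0.0291). Slc17a6, which loads glutamate into vesicles in hypothalamus and thalamus, read 7.75, 8.22 and 8.54 in PFC arrays, against 8.82 and 8.62 in TgS CPu, 7.52 in TgR CPu and 9.20 and 9.30 in FVB/N CPu (adjusted p = 0.0306). In all 3 genes the CPu arrays ran from TgR, lowest, to FVB/N, highest, whereas PFC arrays stayed within 0.8 of each other. FVB/N CPu arrays also had the lowest actin 5′ minus 3′ values, and the part of RNA integrity or of the dissection border in these strain differences was not tested.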

How the data were processed

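Total RNA of dissected tissue was hybridised to Affymetrix arrays, and the authors deposited 1 series table of log2 signals for 22690 probe sets on 29 arrays. Per the submitters' processing notes, RMA (background correction, quantile normalization and probe summary) was applied, with Affymetrix Expression Console and Affymetrix Power Tools named as software. For these the sources used here give no versions. RMA makes the signal distributions of arrays nearly equal, so a difference is relative to the other transcripts of the same array. It gives no scanner signal, so no background level could be set for dim probe sets, and the number of arrays limits the precision.

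From the deposited log2 values, limma 3.58.1 in R 4.3.3 fitted region and strain to the 11 MPTP arrays (7 residual degrees of freedom). A region by strain fit to the same arrays had 5 residual degrees of freedom. A fit of 23 arrays, with naive PFC replicates 3 and 4, gave the naive difference and the MPTP minus naive test (11 residual degrees of freedom). The fit of all 29 arrays with the set term took naive PFC replicates 1 and 2 as the naive level of the PFC. Tests were two-sided, with Benjamini-Hochberg adjustment over 22626 transcripts. Of these, 20380 had 1 gene symbol in the platform annotation, 691 several and 1555 none, and only those with 1 were named. The scripts were tested on simulated data.

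Genes were named by rule: the 15 largest called differences in each direction, a short set of dopamine and cholinesterase genes, the 4 smallest p-values of each list, and the 8 largest in each direction for the strain and MPTP minus naive tests. Cnr1, Slc18a3, Pde10a, Sst, P2ry12, Arc and Cd24a lie outside that rule and were chosen after their values were seen. The members and lists were chosen with earlier results of these data known. The alternatives were other variance models, filters, normalization, gene summaries and sample sets, a block for the replicate number, and each array left out in turn. Leaving out both FVB/N CPu arrays was chosen after seeing the data.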

Additional observations from a re-analysis of the deposited data

Results flagged for a closer look

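Among 36 named genes, 3 of 72 gene and region pairs had 1 array far from the rest of its group, where chance gives about 1 in 20. C1ql3 read 8.13 in FVB/N CPu replicate 2, against 8.90 to 9.16 in the other CPu arrays. Dmkn read 10.32 in TgR CPu replicate 1, against at most 9.53 in the others. Pdyn read 7.82 in TgS CPu replicate 2, against at least 8.48 in the others.

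The PFC minus CPu difference after MPTP differed between strains for 128 transcripts by the limma F test. The TgR minus FVB/N value of that difference was positive for Oxt at 1.96 and Gal at 1.66, both on the hypothalamic list. Outside that list it was positive for Tac2 (the neurokinin B precursor) at 1.81, Sytl4 (a synaptotagmin-like protein of secretory granules) at 1.78 and Slc17a6 at 1.62. Baiap3 (which acts in dense-core vesicle traffic) had 1.59, Sln (sarcolipin, a regulator of the calcium pump) 1.58 and Asb4 1.5. The TgR minus FVB/N value was negative for Myl4 at -1.45, Ido1 at -1.31, Blnk (an adaptor of B-cell signalling) at -1.23 and Cplx3 (a complexin of deep cortical neurons) at -1.12. It was also negative for Dmkn at -1.03, St8sia3 (a sialyltransferase) at -1.02 and Dkk3 (a Dickkopf family protein) at -0.93. The TgS minus FVB/N value for Gabra2, a GABA-A receptor subunit, was -0.95. All TgR values rest on a single CPu array.

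The regional difference itself differed between MPTP and naive arrays for 7349 transcripts. The change was positive for Aldh1a2 at 1.64, Vwf at 1.61, Prg4 (lubricin) at 1.54, Thbd at 1.41, Epas1 (a hypoxia-inducible factor rich in endothelium) at 1.32, Slc47a1 at 1.31, Igf2 (an imprinted growth factor of meninges and choroid plexus) at 1.28 and Lbp (which binds bacterial lipopolysaccharide) at 1.19. It was negative for B3galt2 (a galactosyltransferase) at -1.25, Gpr34 (a receptor of microglia) at -1.11, Bpifb1 at -1.08, Zfy2 (a Y-linked zinc finger gene) at -1.05, Neurod6 at -0.97, Ivl (involucrin) at -0.88, Aif1l at -0.86 and H2-Ea (a class II histocompatibility gene) at -0.85. With all 29 arrays and the set term, 7 of these 16 changes had an adjusted p over 0.05 by limma: Slc47a1 (0.20), Vwf (-0.04), Prg4 (0.52), Thbd (0.46), B3galt2 (-0.36), Zfy2 (-0.44) and Neurod6 (-0.57). Hybridisation controls moved with this contrast, as described for the arrays, and their part in it was not tested.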

How the results depend on the processing

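Of 790 pairs of 36 named genes and 22 settings, 787 stayed on the same side of the threshold, no call was lost or reversed, and 3 were gained, all for Th: 0.81 in the fit of 23 arrays, 1.17 without FVB/N PFC replicate 2 and 1.36 without both FVB/N CPu arrays (adjusted p = 0.032, 0.0034 and 0.0224). Uncalled values near 0 changed sign for Lcn2 (-0.11 with no strain covariate) and for Slc6a3 (-0.01 in 3 settings). Calls of region after MPTP were 7200 with all 29 arrays, and 6577 of 12393 genes with all probe sets of a gene averaged, a smaller number of features. At least 2-fold calls were then 335. A trended and robust variance gave 323 strain calls, and the cause was not tested. Without FVB/N CPu arrays region calls were 9419 and at least 2-fold calls 619. For MPTP minus naive, 29 arrays gave 9801 calls with the set term and 2480 without it, and the cause was not tested. Quantile normalization moved its higher share to 45.1%, against 57%.

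Leaving out 1 array gave 10307 to 11329 calls for region, 624 to 698 at 2-fold, 17 to 136 for strain and 6258 to 7007 for MPTP minus naive. The last test was not run without the TgR CPu array, since no strain average could be formed. Same-numbered arrays of 1 strain had residual correlations of 0.10 (FVB/N) and 0.15 (TgS), and those of different strains -0.16 to 0.11, so the numbers are not shown to pair. With the replicate number as a block, region calls were 11521, 2-fold calls 665, strain calls 92 and MPTP minus naive calls 4855. With the number within strain as the block, region calls were 10806 and 2-fold calls 678.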

Other observations

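Genes that glucocorticoid hormones induce were mixed between the regions after MPTP. Of 14 measured, 1 was higher and 6 lower in the PFC (median -0.18, against -0.04 for all genes). Zbtb16, a transcriptional repressor, was 2.15-fold higher in the PFC by 1 of its 2 probe sets, while the other differed by 0.06 and was not called. Pdk4, a kinase that limits glucose oxidation, was 2.23-fold lower and Sgk1, a kinase of ion transport, 1.77-fold lower. Of 8 genes of the septum and globus pallidus, which border the CPu, 2 were higher and 3 lower (median -0.14).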
